A study of Homo sapiens with 9 samples.

Results

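The genes described here are the 44 genes that the deposited table assigns to the pathway of aminoacyl-tRNA biosynthesis, out of 16772 genes in the table. They were taken by that pathway entry alone, with no filter on expression, although earlier results of these data were known. RNA was sequenced from DU145, an established human prostate carcinoma cell line, cultured for 6 days in medium that was renewed daily. The groups were cells given H93 at 20 µM, cells given 500 nM SAHA, the histone deacetylase inhibitor also called vorinostat, and cells given DMSO, the solvent in which both compounds were dissolved. Each group had 3 libraries, the genotype was labelled wild type throughout, and the series title calls H93 a compound aimed at UHRF1, a protein that helps to copy DNA methylation after replication. The doses are written with m in place of M in the labels and are read as micromolar and nanomolar. Of the 44 genes, 21 encode synthetases of the cytosol, 17 encode synthetases of mitochondria, and 6 encode enzymes that act on an already charged tRNA.

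An aminoacyl-tRNA synthetase joins an amino acid to its tRNA, using ATP, and so sets which amino acid a codon will deliver at the ribosome. Human cells keep separate nuclear genes for most of the cytosolic and the mitochondrial enzymes, and the mitochondrial set serves the few proteins translated inside the organelle. The gene names begin with the one-letter code of the amino acid, as in LARS1 for leucine, and end in 1 for most cytosolic and in 2 for the mitochondrial enzymes. GARS1 (glycine) and KARS1 (lysine) supply both compartments from a single gene. The enzymes fall into class I and class II by the fold of their catalytic domain. Several cytosolic synthetases are held in a multisynthetase complex with scaffold proteins. When uncharged tRNA builds up, the kinase GCN2, encoded by EIF2AK4, slows translation and favours the transcription factor ATF4, which binds C/EBP-ATF composite sites, and many cytosolic synthetase genes are known ATF4 targets.

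The 9 libraries were close in relative depth and in summed FPKM. Absolute read depth was unknown. Steps in the low values put relative depth between 0.875 and 1.0, and FPKM (read fragments scaled by transcript length and library size) summed to between 348656 and 355741 per library. The epithelial keratins KRT8 and KRT18 were high in all groups, at means of 663 to 730 FPKM with H93, 694 to 714 FPKM with SAHA and 676 to 682 FPKM with DMSO. The leukocyte marker PTPRC had group means of 0.009, 0.006 and 0 FPKM, and the endothelial marker PECAM1 0.015, 0.02 and 0.005 FPKM, with H93, SAHA and DMSO in that order. In the same order, CD14, another leukocyte marker, was higher than PTPRC, at 0.939, 0.807 and 0.574 FPKM. The other endothelial markers were VWF at 0.099, 0.109 and 0.024 FPKM and CDH5 at 0.1, 0.085 and 0.087 FPKM. The fibroblast marker COL1A1 had means of 3.20, 3.25 and 2.24 FPKM. Other epithelial markers moved with treatment: EPCAM had means of 30.4, 37.8 and 67.1 FPKM, CDH1 4.34, 5.09 and 13.3 FPKM, and KRT19 420.4, 326 and 169 FPKM, with H93, SAHA and DMSO in that order. Their part in the results below was not tested. Differences are given below on the log2(FPKM + 1) scale from a limma fit over 11525 genes, and a gene is said to have risen or fallen where its Benjamini-Hochberg adjusted p was under 0.05. All 44 pathway genes passed the filter on low values, which asked for 3 or more libraries with an FPKM of 1 or more.

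The C/EBP-ATF composite site is shown first because it is the sequence through which ATF4 is known to reach the synthetase genes. RefSeq promoter windows of 300 bases (250 before and 50 after the transcription start, GRCh38.p14) were found for 34 of the 44 genes. Among those not in the table were AARS2, LARS1, MTFMT, SEPSECS, TARS3, VARS1, VARS2 and YARS1. The windows were searched on both strands for the 8 letters TGATGNAA, which read TTNCATCA on the other strand. A match was present in 8 of the 34 pathway genes (23.5%) and in 1217 of the 27305 genes of the promoter table (4.46%). These 27305 genes were not limited to the 11525 genes of the limma fit. The form TGATGCAA, or TTGCATCA on the other strand, was present in 6 of the 34 (17.6%) and in 295 of the 27305 (1.08%). The 8 sites are printed 5′ to 3′ on the strand of the gene, with 11 bases on each side in lower case and the 8 matching bases in capitals.
AARS1: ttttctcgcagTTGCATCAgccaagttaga
CARS1: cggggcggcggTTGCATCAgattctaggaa
GARS1: ttacgcggcgaTTTCATCAtgctccgagcc
IARS1: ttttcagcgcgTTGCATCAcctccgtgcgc
MARS1: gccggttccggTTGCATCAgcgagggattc
NARS1: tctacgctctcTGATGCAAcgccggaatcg
TARS1: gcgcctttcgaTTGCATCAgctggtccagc
YARS2: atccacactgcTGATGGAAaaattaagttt
The 30-base windows lie at chr16:70289675-70289704 (minus strand) for AARS1, chr11:3057407-3057436 (minus) for CARS1, chr7:30594834-30594863 (plus) for GARS1 and chr9:92293692-92293721 (minus) for IARS1. Those of the other genes lie at chr12:57488053-57488082 (plus) for MARS1, chr18:57621804-57621833 (minus) for NARS1, chr5:33440956-33440985 (plus) for TARS1 and chr12:32756076-32756105 (minus) for YARS2. AARS1, CARS1, IARS1, MARS1, NARS1 and TARS1 carry the exact form, and GARS1 and YARS2 differ from it at the free position. All but YARS2 encode cytosolic enzymes. The first of the capital bases lies 187 bases before the RefSeq start in AARS1 and 197 in YARS2. It lies 33 bases before the start in GARS1, 13 in IARS1, 4 in MARS1 and 2 in CARS1, and 2 and 14 bases after it in TARS1 and NARS1. A match is a description of the letters and no evidence of binding.

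By mRNA level, the cytosolic genes had the higher median, although their range overlapped that of the mitochondrial genes. In DMSO libraries the median cytosolic gene had a mean of 69.2 FPKM, between 4.87 FPKM for TARS3, a second cytosolic threonyl-tRNA synthetase, and 146 FPKM for TARS1, the main one. The median mitochondrial gene had 10.5 FPKM, between 1.90 FPKM for FARS2 (phenylalanine) and 64.8 FPKM for IARS2 (isoleucine). The 6 enzymes acting on charged tRNA had a median of 7.21 FPKM. With H93 the corresponding medians were 60.5, 8.98 and 5.37 FPKM, and TARS1 and IARS2 were again the highest of their groups. FPKM is scaled by transcript length, so these levels can be set beside each other.

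After 6 days of H93 most of the pathway was lower than with DMSO. The FPKM of the 44 genes summed to 1619.5 ± 3.32 in H93 libraries and to 1817.0 ± 11.5 in DMSO libraries (SD, n = 3 each), which was 0.464% and 0.519% of all FPKM. In bulk RNA of this kind, less of an mRNA per cell and fewer cells that express it cannot be told apart. Of the 44 genes, 28 fell and 5 rose, and 11 did not pass. Among all 11525 genes tested, 35.0% fell and 34.9% rose in this comparison, 69.8% together. The median difference of the 44 genes was -0.19, beside 0.0016 for all genes. The FPKM values of the groups did not overlap for 27 genes that were lower and 9 that were higher with H93, beside 36.8% and 36.4% of all genes (73.2% together). The differences ran from -0.53 for SARS2 to 0.56 for WARS1. For the 2-fold call the count was 0 of the 44 genes, near the 2.28% of all genes that met it.

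**Figure D1:**
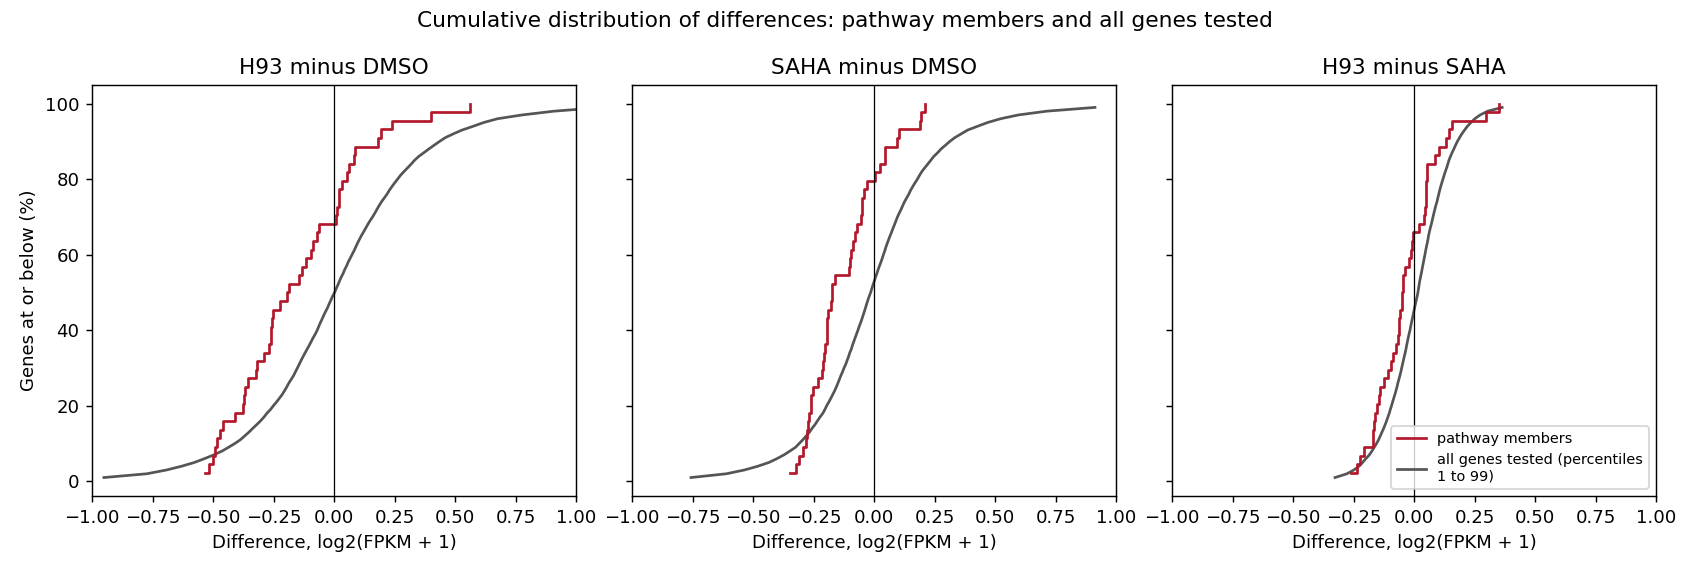
Cumulative share of genes (vertical axis, %) at or below a difference in log2(FPKM + 1) (horizontal axis) for the 44 pathway genes (red) and all 11525 genes tested (grey, percentiles 1 to 99), in H93 minus DMSO, SAHA minus DMSO and H93 minus SAHA. The red line stands to the left of the grey line over most of its length in all 3 panels, with medians of -0.19, -0.18 and -0.05 for the pathway genes.

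Among the 21 cytosolic synthetases, 14 fell and 4 rose with H93, beside 35.0% and 34.9% of all genes. QARS1, which charges glutamine (chromosome 3, 49095932 to 49105135), had 60.4, 59.1 and 60.5 FPKM with H93, against 79.5, 79.4 and 81.0 FPKM with DMSO. Every H93 library lay well below every DMSO library, and the mean difference was -0.41 (SE 0.0239, adjusted p = 1.5e-08). IARS1 (isoleucine) had 59.7, 61.8 and 60.1 FPKM with H93, against 79.1, 78.1 and 77.9 FPKM with DMSO, a difference of -0.37. AARS1 (alanine) had 110.1, 111.5 and 112.5 FPKM with H93, against 142.6, 142.3 and 143.7 FPKM with DMSO, a difference of -0.36. In both genes the spread within a group was small beside the gap between groups. LARS1 (leucine) and YARS1 (tyrosine) each fell by 0.32, KARS1 by 0.26, NARS1 (asparagine) by 0.26 and TARS1 by 0.25. Smaller falls were those of EPRS1, which joins glutamyl and prolyl activities in 1 protein (-0.22), FARSA, a subunit of the cytosolic phenylalanyl enzyme (-0.18), VARS1 for valine (-0.15), CARS1 for cysteine (-0.09) and MARS1 for methionine (-0.09). CARS1 did not pass without H93 replicate 2 (limma adjusted p = 0.0562).

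The 4 cytosolic synthetases that rose were WARS1, SARS1, RARS1 and GARS1. WARS1, the tryptophanyl enzyme, which interferon is known to induce (chromosome 14, 100333788 to 100376805), had 59.9, 60.5 and 61.9 FPKM in H93 libraries, against 41.4, 39.3 and 41.8 FPKM in DMSO libraries. Its H93 mean was 48.7% above its DMSO mean, more than for any other gene of the pathway (log2 difference 0.56, SE 0.0308, adjusted p = 8.5e-09). SARS1, the seryl enzyme (chromosome 1, 109213918 to 109238169), had 68.5, 67.2 and 68.7 FPKM with H93, against 59.5, 55.4 and 57.7 FPKM with DMSO, a difference of 0.24 (SE 0.0287, adjusted p = 9.7e-06). RARS1, the arginyl enzyme, had 56.4, 55.7 and 56.1 FPKM with H93, against 48.0, 48.7 and 50.2 FPKM with DMSO, a difference of 0.19. GARS1, the glycyl enzyme (chromosome 7, 30594681 to 30634033), had 121.4, 121.1 and 117.8 FPKM with H93, against 103.0, 108.3 and 106.6 FPKM with DMSO, a difference of 0.18. In each of the 4 genes the lowest H93 library lay above the highest DMSO library. HARS1 (histidine), TARS3 and FARSB did not pass. FARSB, the partner subunit of FARSA, had 11.4, 11.3 and 11.3 FPKM with H93 against 10.3, 10.9 and 10.7 FPKM with DMSO (adjusted p = 0.0534). It passed without SAHA replicate 2 or 3, with quantile normalization and with only the 6 libraries compared (limma adjusted p between 0.0334 and 0.0474).

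**Figure D2:**
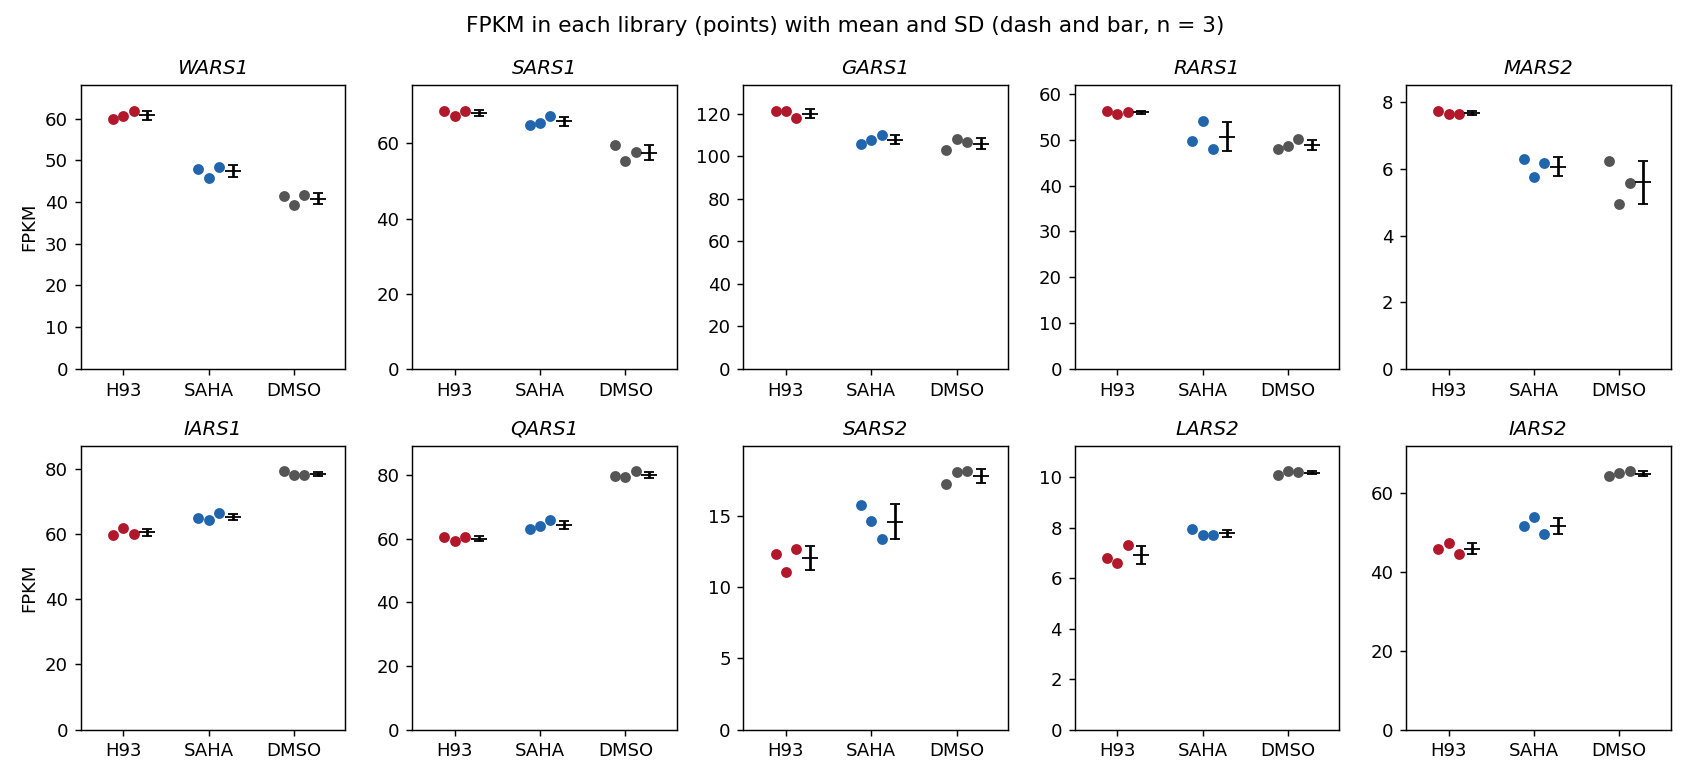
FPKM (vertical axes, starting at 0) of 10 pathway genes in each of the 3 libraries (points) with H93, SAHA and DMSO, with the mean and SD of each group beside them (dash and bar). The upper genes WARS1, SARS1, GARS1, RARS1 and MARS2 have their highest mean with H93, and the lower genes IARS1, QARS1, SARS2, LARS2 and IARS2 their lowest.

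Among the 17 mitochondrial synthetases, 11 fell and 1 rose with H93, beside 35.0% and 34.9% of all genes. SARS2, the mitochondrial seryl enzyme (chromosome 19, 38915266 to 38930896), had 12.3, 11.1 and 12.7 FPKM in H93 libraries, against 17.2, 18.1 and 18.1 FPKM in DMSO libraries. This was the lowest difference in the pathway on the log2(FPKM + 1) scale, at -0.53 (SE 0.0578, adjusted p = 4.0e-06). By the ratio of the H93 mean to the DMSO mean, GATB, described below, was slightly lower, at 0.670 beside 0.675 for SARS2. LARS2 (chromosome 3, 45388506 to 45549421), for leucine, had 6.80, 6.61 and 7.30 FPKM with H93, against 10.1, 10.2 and 10.2 FPKM with DMSO, a difference of -0.50. IARS2 (chromosome 1, 220094102 to 220148041), for isoleucine, had 45.7, 47.3 and 44.5 FPKM with H93, against 64.1, 64.9 and 65.4 FPKM with DMSO, a difference of -0.49. The groups of all 3 genes were widely separated, with H93 means of 0.675, 0.678 and 0.707 times the DMSO means. EARS2 (glutamate) fell by 0.46, NARS2 (asparagine) by 0.38, FARS2 by 0.29 and HARS2 (histidine) by 0.26. TARS2 (threonine) fell by 0.13, YARS2 (tyrosine) by 0.12 and WARS2 (tryptophan) by 0.19. YARS2 did not pass without H93 replicate 1 or without DMSO replicate 1 (limma adjusted p between 0.0644 and 0.0866). WARS2 (adjusted p = 0.0437) had overlapping groups and did not pass without H93 replicate 2 or 3, without DMSO replicate 2 or 3, or with no filter on low values (limma adjusted p between 0.0813 and 0.183).

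MARS2, the mitochondrial methionyl-tRNA synthetase (chromosome 2, 197705369 to 197708387), was the 1 mitochondrial synthetase that rose. It had 7.74, 7.66 and 7.63 FPKM in H93 libraries, against 6.24, 4.96 and 5.58 FPKM in DMSO libraries, a mean 37.3% higher (log2 difference 0.40, SE 0.0618, adjusted p = 8.5e-05). The H93 libraries lay close together above a wider DMSO group. Values for AARS2 (alanine), CARS2 (cysteine), PARS2 (proline), RARS2 (arginine) and VARS2 (valine) differed by 0.05, 0.08, -0.07, 0.02 and 0.06 and did not pass. VARS2 passed without DMSO replicate 2 and with quantile normalization (limma adjusted p of 0.041 to 0.0446).

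**Figure D3:**
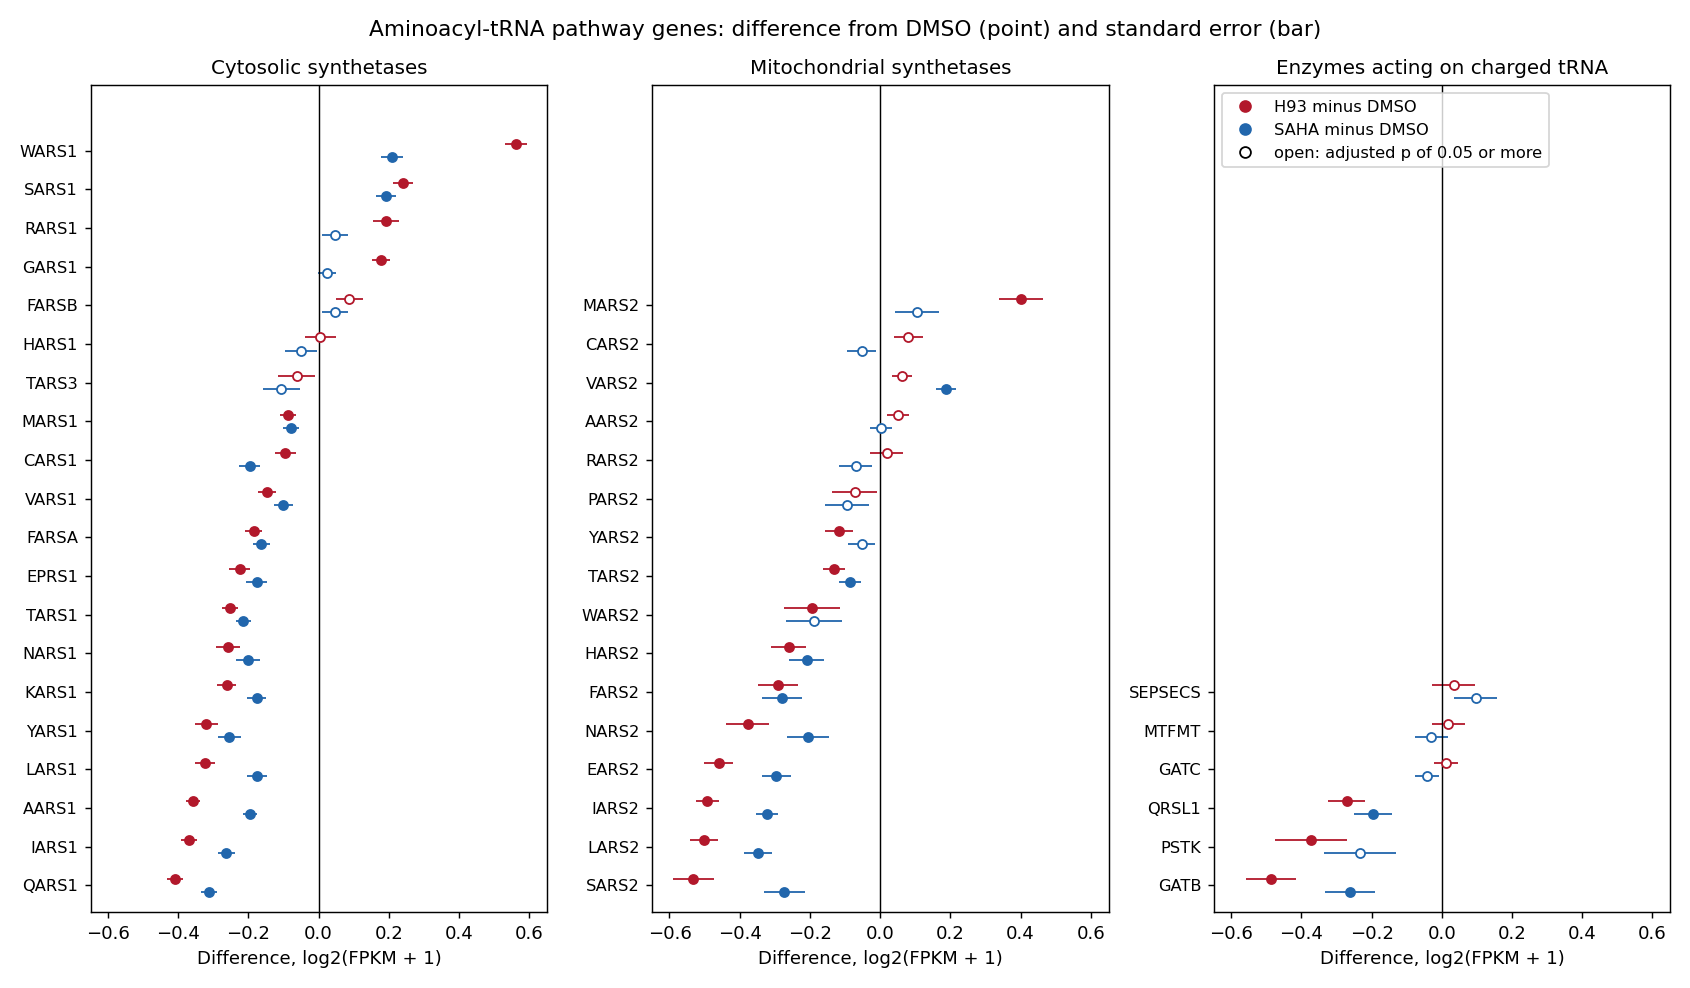
Difference from DMSO in log2(FPKM + 1) (horizontal axis) for H93 (red) and SAHA (blue), with standard errors as bars, for the cytosolic synthetases, the mitochondrial synthetases and the enzymes acting on charged tRNA that are reported by name. Filled points had an adjusted p under 0.05, and with H93 those above 0 are WARS1, MARS2, SARS1, RARS1 and GARS1.

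A cytosolic and a mitochondrial gene for the same amino acid could be set side by side in 17 pairs, in which FARS2 and TARS2 each stand beside 2 cytosolic genes. With H93, both genes fell in 7 pairs, 1 of the genes passed in 7 pairs, and the genes passed in opposite directions in 3 pairs. Single genes passed often, as 35.0% of all genes fell and 34.9% rose with H93. How often unrelated genes would pair in these ways was not tested. The pairs in which both genes fell included those for isoleucine, leucine, asparagine and tyrosine, for threonine (TARS1 and TARS2) and for phenylalanine (FARSA and FARS2). In the serine pair SARS1 rose by 0.24 and SARS2 fell by 0.53. In the tryptophan pair WARS1 rose by 0.56 and WARS2 fell by 0.19, where the WARS2 call depended on single libraries as given above. In the methionine pair the directions were the other way about, with MARS1 falling by 0.09 and MARS2 rising by 0.40. These opposite pairs are described from the 2 tests and the difference within a pair was not itself tested.

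**Figure D4:**
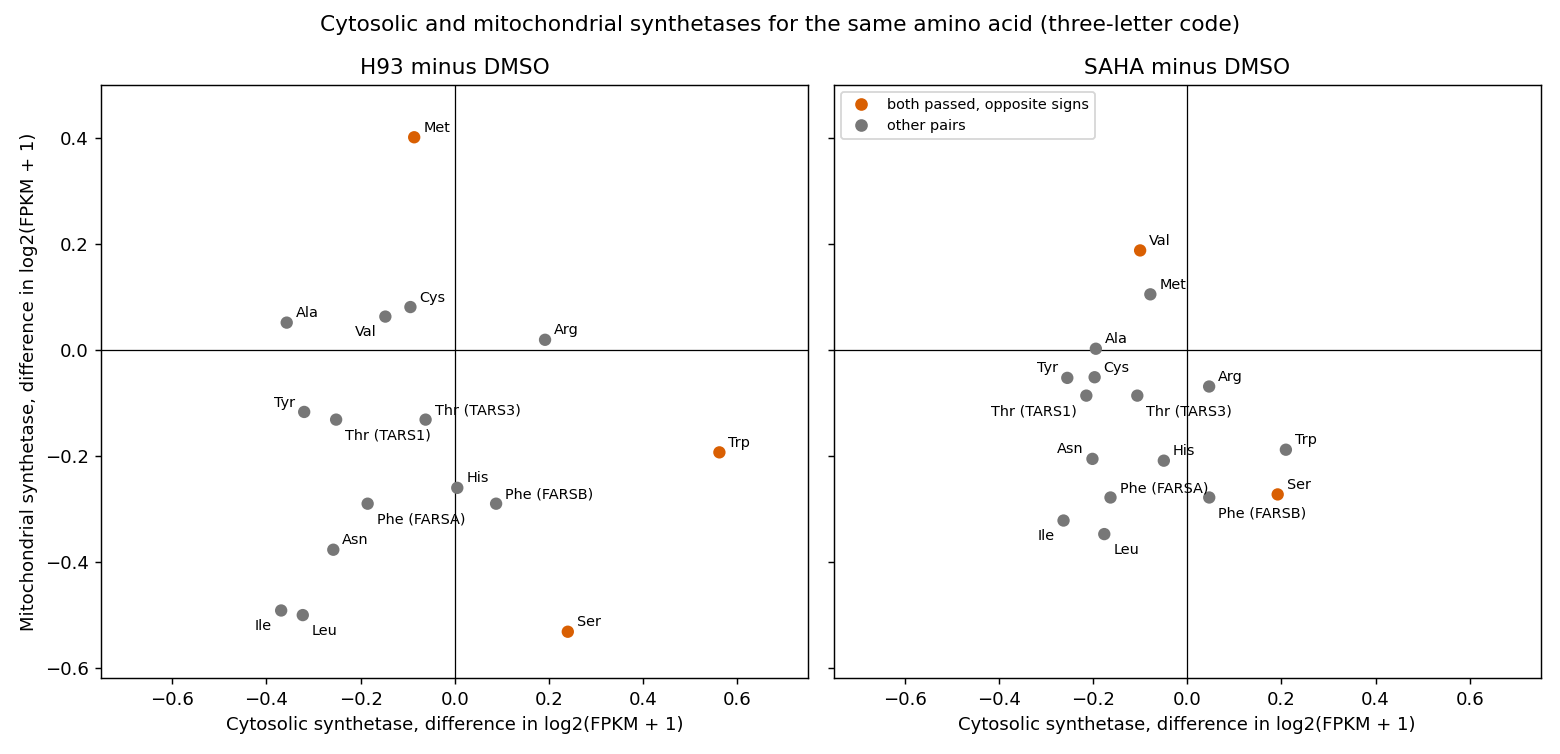
Difference in log2(FPKM + 1) of the mitochondrial synthetase (vertical axis) against that of the cytosolic synthetase for the same amino acid (horizontal axis), for the pairs reported by name, in H93 minus DMSO and SAHA minus DMSO. Orange points are pairs whose genes both passed with opposite signs, which are Ser, Trp and Met with H93 and Ser and Val with SAHA.

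Of the 6 enzymes that act on charged tRNA, 3 fell with H93 and 0 rose, beside 35.0% and 34.9% of all genes. GATB, QRSL1 and GATC encode the subunits of the mitochondrial amidotransferase that turns glutamyl-tRNA into glutaminyl-tRNA, since mitochondria have no glutaminyl synthetase of their own, and EARS2 makes its substrate. GATB had 4.64, 4.20 and 4.35 FPKM in H93 libraries, against 6.20, 6.36 and 7.13 FPKM in DMSO libraries, a difference of -0.49 (SE 0.0713, adjusted p = 5.7e-05). The groups did not overlap. QRSL1 fell by 0.27, whereas GATC had means of 16.1 and 16.0 FPKM with H93 and DMSO and did not pass (adjusted p = 0.749). PSTK, which phosphorylates seryl-tRNA on the route to selenocysteine, had 1.94, 1.23 and 1.73 FPKM with H93, against 2.86, 2.10 and 2.24 FPKM with DMSO, a difference of -0.37. The groups were separate, although this gene was among the least abundant of the pathway. SEPSECS, which completes selenocysteine on its tRNA, and MTFMT, which formylates the initiator methionyl-tRNA of mitochondria, differed by 0.03 and 0.02 and did not pass.

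By structural class, 12 of 18 class I genes fell and 3 rose, with a median of -0.13, and 12 of 19 class II genes fell and 2 rose, with a median of -0.25. EPRS1 carries both classes and was counted in neither. Beside every count in this paragraph stand the shares of all genes with H93, 35.0% lower and 34.9% higher. Of the 8 synthetases held in the multisynthetase complex, 7 fell, among them QARS1, IARS1, LARS1, KARS1, EPRS1 and MARS1, and RARS1 rose, with a median of -0.29. Among the scaffold genes of that complex, AIMP2 had means of 24.7 ± 0.883 and 33.3 ± 0.834 FPKM with H93 and DMSO (SD, n = 3 each), a difference of -0.42. AIMP1 fell by 0.20 and EEF1E1 rose by 0.13. EEF1E1 did not pass without H93 replicate 1 or without DMSO replicate 2 or 3 (limma adjusted p between 0.0551 and 0.0728). Of the 8 genes with the promoter site, 7 fell and GARS1 rose, with a median of -0.18. Of the 26 whose window held no site, 16 fell and 4 rose, with a median of -0.21.

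Genes next to the pathway were read from a list of 24, of which 23 were tested. AARSD1, an editing protein for mischarged alanyl-tRNA, was at 0 in 7 libraries and at 0.0417 FPKM or less in the others, and was left out by the filter. With H93, 17 of the 23 fell and 3 rose, with a median of -0.20. All 5 listed genes of elongation factor 1, which takes charged tRNA to the ribosome, fell. EEF1D had a mean of 61.7 FPKM with H93 and 91.8 FPKM with DMSO, a difference of -0.57, and EEF1A2, EEF1B2, EEF1G and EEF1A1 differed by -0.36, -0.27, -0.20 and -0.10. EEF1A1 did not pass with quantile normalization (difference -0.0074, limma adjusted p = 0.727). Of the 5 mitochondrial translation factors, the initiation factors MTIF2 (-0.44) and MTIF3 (-0.35), the elongation factor GFM1 (-0.15) and the tRNA carrier TUFM (-0.13) fell, and TSFM (-0.07) did not pass. DTD1, which removes D-amino acids from tRNA (-0.25), ELAC2, which trims tRNA 3′ ends (-0.21), and TRNT1, which adds the CCA end (-0.13), fell. TRNT1 did not pass without H93 replicate 3 or without DMSO replicate 1 (limma adjusted p of 0.0845 to 0.0889). DTD2 and ELAC1 did not pass.

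The genes of amino acid sensing moved in both directions with H93. EIF2AK4, the gene of GCN2, had a mean of 49.3 FPKM with H93 and 39.7 FPKM with DMSO, a difference of 0.31. The mRNA of ATF4 had a mean of 39.2 FPKM with H93 and 47.1 FPKM with DMSO, a difference of -0.26. ASNS, asparagine synthetase, rose by 0.26, while the serine synthesis genes PHGDH and PSAT1 fell by 0.25 and 0.11. ATF4 is regulated mainly in translation, which mRNA levels do not measure.

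With SAHA, too, most genes of the pathway that passed were lower than with DMSO, and both comparisons use the same DMSO libraries. The 44 genes summed to 1652.6 ± 7.69 FPKM in SAHA libraries and 1817.0 ± 11.5 FPKM in DMSO libraries (SD, n = 3 each). Of the 44 genes, 25 fell and 3 rose, and 16 did not pass. Among all genes, 31.4% fell and 27.4% rose, 58.8% together. The median of the 44 genes was -0.18, beside -0.0145 for all genes. A 2-fold call was met by 0 of the 44 and by 1.12% of all genes. The groups did not overlap for 26 lower and 3 higher pathway genes, beside 34.4% and 29.7% of all genes (64.1% together).

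Among the 21 cytosolic synthetases 14 fell and 2 rose with SAHA, beside 31.4% and 27.4% of all genes. Among the 17 mitochondrial ones 9 fell and 1 rose. Of the 6 enzymes acting on charged tRNA, 2 fell, GATB (-0.26) and QRSL1 (-0.20). These were 33.3% of the 6, near the 31.4% of all genes that fell with SAHA. LARS2 had 7.94, 7.71 and 7.70 FPKM in SAHA libraries, against 10.1, 10.2 and 10.2 FPKM in DMSO libraries, a difference of -0.35 (SE 0.0404, adjusted p = 1.2e-05). IARS2 had 51.5, 53.8 and 49.7 FPKM with SAHA, against 64.1, 64.9 and 65.4 FPKM with DMSO, a difference of -0.32. QARS1 had 63.1, 64.0 and 65.7 FPKM with SAHA, against 79.5, 79.4 and 81.0 FPKM with DMSO, a difference of -0.31. None of these 3 genes had overlapping groups. EARS2 fell by 0.30, FARS2 by 0.28 and SARS2 by 0.27. Of the multisynthetase complex, 7 of 8 genes fell and RARS1 did not pass (difference 0.05).

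The 3 genes that rose with SAHA were WARS1, SARS1 and VARS2. WARS1 had 47.8, 45.8 and 48.5 FPKM in SAHA libraries, against 41.4, 39.3 and 41.8 FPKM in DMSO libraries, a difference of 0.21. SARS1 had 64.9, 65.5 and 67.3 FPKM with SAHA, against 59.5, 55.4 and 57.7 FPKM with DMSO, a difference of 0.19. VARS2 had 28.0, 28.9 and 29.2 FPKM with SAHA, against 24.8, 25.7 and 24.8 FPKM with DMSO, a difference of 0.19. In each of these the SAHA libraries all lay above the DMSO libraries. The cytosolic partner of VARS2, VARS1, fell by 0.10, so that valine as well as serine had genes that passed in opposite directions. Both genes fell in 6 of the 17 pairs, while 31.4% of all genes fell and 27.4% rose with SAHA. MARS2 differed by 0.10 and did not pass, except without DMSO replicate 1 (difference 0.17, limma adjusted p = 0.0191).

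TARS2 (-0.09) did not pass without SAHA replicate 1 or 2, without DMSO replicate 1 or 3, or with quantile normalization (limma adjusted p between 0.0537 and 0.133). NARS2 (-0.21) did not pass without DMSO replicate 3 (limma adjusted p = 0.0543). WARS2, PSTK and TARS3, with adjusted p of 0.0564, 0.07 and 0.101, passed in other settings. WARS2 passed without SAHA replicate 1, H93 replicate 1 or 3, or DMSO replicate 1, PSTK without H93 replicate 2 or DMSO replicate 2, and TARS3 without SAHA replicate 1 (limma adjusted p between 0.0075 and 0.0497 over all settings in which they passed).

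Of the 23 genes next to the pathway, 13 (56.5%) fell and 2 (8.7%) rose with SAHA, with a median of -0.15. The shares of all genes were 31.4% and 27.4%. EIF2AK4 had a mean of 47.7 FPKM with SAHA and 39.7 FPKM with DMSO (0.26), and ATF4 had 42.3 and 47.1 FPKM (-0.15). ASNS differed by 0.05 and did not pass. EEF1D fell by 0.37. EEF1A1 rose by 0.05 (limma adjusted p = 0.0467) but did not pass in 13 of the 19 alternatives, among them the omission of any library but SAHA replicate 1 (limma adjusted p between 0.051 and 0.121). MTIF3 fell by 0.24 and did not pass without SAHA replicate 2 or 3 or DMSO replicate 1 or 2 (limma adjusted p between 0.0568 and 0.16 over 6 alternatives).

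The compounds were also compared with each other, and H93 and SAHA were each given at 1 dose, so the values stand for those doses. Of the 44 genes, 14 were lower and 6 higher with H93 than with SAHA at adjusted p under 0.05, and 24 did not pass. Among all genes, 13.9% were lower and 17.6% higher, 31.5% together. The median of the 44 genes was -0.05, beside 0.02 for all genes. The groups did not overlap for 14 lower and 8 higher pathway genes, beside 18.8% and 25.6% of all genes (44.4% together). A 2-fold call was met by 0 of the 44 and by 0.0174% of all genes.

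WARS1 showed the widest gap, with 59.9, 60.5 and 61.9 FPKM in H93 libraries and 47.8, 45.8 and 48.5 FPKM in SAHA libraries (log2 difference 0.35, SE 0.0308, adjusted p = 2.6e-05). MARS2 had 7.74, 7.66 and 7.63 FPKM with H93 and 6.28, 5.75 and 6.17 FPKM with SAHA, a difference of 0.30. In both genes each H93 library was above each SAHA library. GARS1, RARS1, CARS2 and CARS1 were higher with H93 by 0.16, 0.15, 0.13 and 0.10, so both cysteinyl enzymes stood on the same side. CARS2 did not pass without H93 replicate 2 or 3, without SAHA replicate 1 or 2, or with quantile normalization (limma adjusted p between 0.0513 and 0.0901). CARS1 did not pass without H93 replicate 1, without SAHA replicate 3, or with quantile normalization (limma adjusted p between 0.0512 and 0.0883). SARS1, which rose against DMSO with either compound, had means of 68.1 FPKM with H93 and 65.9 FPKM with SAHA and did not pass (adjusted p = 0.226).

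Among the genes lower with H93 than with SAHA, SARS2 had 12.3, 11.1 and 12.7 FPKM with H93 and 15.7, 14.6 and 13.3 FPKM with SAHA, a difference of -0.26. The groups of this gene did not overlap. GATB differed by -0.22, NARS2 and IARS2 by -0.17, and EARS2 and AARS1 by -0.16. LARS2 and LARS1 differed by -0.15, VARS2 by -0.12, IARS1 by -0.11, QARS1 by -0.10 and KARS1 by -0.09. Both the cytosolic and the mitochondrial gene were lower with H93 for isoleucine and leucine, among others.

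**Figure D5:**
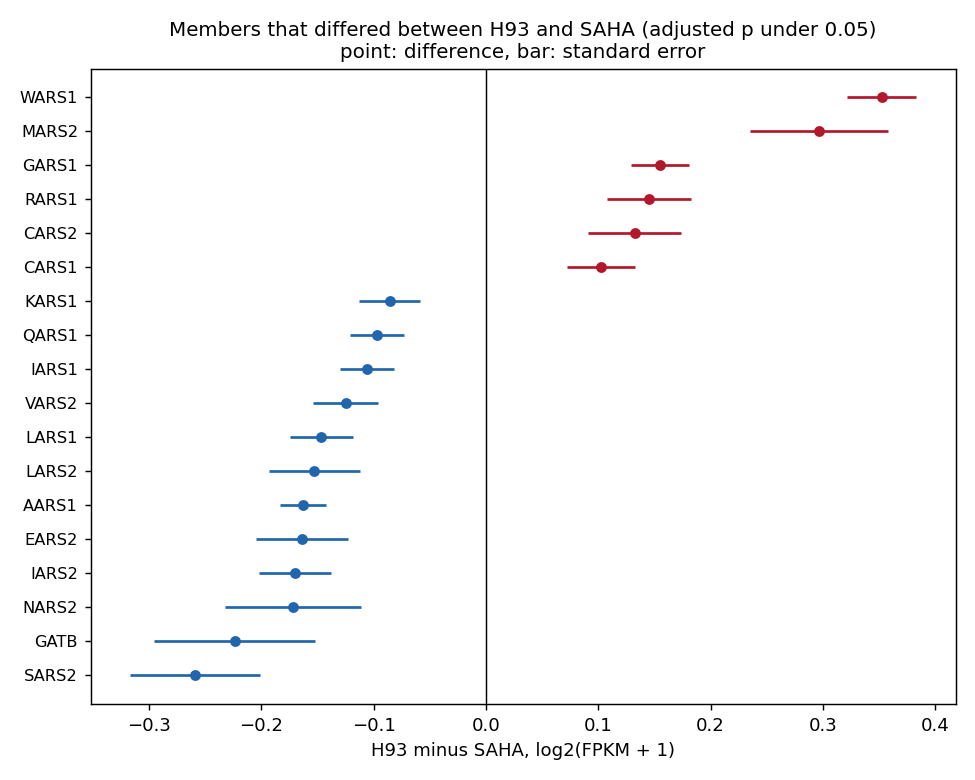
Difference between H93 and SAHA in log2(FPKM + 1) (horizontal axis, H93 minus SAHA) with standard errors as bars, for the pathway genes reported by name with an adjusted p under 0.05. The 6 genes on the right, led by WARS1 at 0.35, were higher with H93, and those on the left, down to SARS2 at -0.26, were lower.

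Some of these calls rested on single libraries. NARS2 did not pass in 11 of the 19 alternatives, among them the omission of any H93 or SAHA library or of DMSO replicate 1 (limma adjusted p between 0.0524 and 0.142). KARS1 did not pass in 8 alternatives, among them the omission of H93 replicate 1 or 3 or of SAHA replicate 1 or 3 (limma adjusted p between 0.0546 and 0.108). GATB did not pass without H93 replicate 2 or 3, without SAHA replicate 3, or with no filter on low values (limma adjusted p between 0.0758 and 0.118). LARS2 did not pass without H93 replicate 2 (limma adjusted p = 0.0562). Of the 23 genes next to the pathway, 8 (34.8%) were lower and 2 (8.7%) higher with H93 than with SAHA. The shares of all genes were 13.9% and 17.6%. AIMP2 was lower by 0.25, with means of 24.7 and 29.6 FPKM, and ASNS was higher by 0.20, with means of 36.4 and 31.5 FPKM for H93 and SAHA. PSAT1, the other gene that was higher, differed by 0.07 and did not pass in 6 alternatives, among them the omission of H93 replicate 1 or 2 or of SAHA replicate 1 or 3 (limma adjusted p between 0.0594 and 0.122).

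Several of these genes share sequence with others on the genome, and whether the authors' quantification used strand is not given in the sources used here. In GENCODE release 29, exons of 21 of the 44 genes overlap exons of a gene on the opposite strand, those of 7 overlap a gene on the same strand, and 12 have a named pseudogene. HARS1 and HARS2 lie head to head, with starts 436 bases apart and overlapping exons. Exons of SARS2 overlap those of MRPS12, a mitochondrial ribosomal protein gene, which fell by 0.14 with H93. Exons of MARS1 overlap those of DDIT3, a stress-response gene with means of 22.1 FPKM with H93 and 17.0 FPKM with DMSO, which rose by 0.37. KARS1 overlaps TERF2IP, a telomere protein gene that rose by 0.41 with H93, EARS2 overlaps UBFD1, which fell by 0.43, and YARS1 overlaps S100PBP, which fell by 0.34. VARS2 shares its strand with the overlapping GTF2H4, a subunit gene of a transcription factor, which rose by 0.09. The part of these overlaps in the values above was not tested. WARS1 overlaps WDR25 on the opposite strand, whose means were 2.94 FPKM with H93 and 2.48 FPKM with DMSO, and has a named pseudogene. LARS2, MARS2 and SARS1 have no overlapping exons and no named pseudogene.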

How the data were processed

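Per the submitters' processing notes, the tools were Cufflinks, HISAT2 and Trimmomatic 0.36, with no roles named, and the genome build was GRCh38.p13. Libraries were made with a stranded mRNA kit, per the labels' protocols. The authors deposited FPKM per gene for the 9 libraries in 1 table. For the annotation, and for whether strand was used, the answer is not given in the sources used here. Absolute depth is unknown, and no counting interval was computed. The labels do not say that the libraries came from separate cultures, so p-values measure the spread between libraries, which may be technical. No batch or date is labelled.

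From these FPKM values, log2(FPKM + 1) was fitted with limma 3.58.1 in R 4.3.3 (group means of all 9 libraries, mean-variance trend, empirical Bayes, two-sided, 6 residual and 6.05 prior degrees of freedom), with Benjamini-Hochberg adjustment over the 11525 genes that reached an FPKM of 1 in 3 or more libraries. This scale understates changes of low genes. The 2-fold call added to the threshold of 0.05 a log2 difference of 1 or more in either direction. An exact permutation test of 3 against 3 cannot go below p = 0.1 and was not used. The procedure was tested on simulated data. Same-numbered libraries did not deviate together (correlations of -0.098 to 0.036 over 9 pairs), so numbers were not paired. Positions came from GENCODE release 29 (all 44 genes matched) and promoters from RefSeq. Class I signature motifs in proteins, a planned search, were not analysed here. Some genes are counted in the totals but not reported here by name or in the plots of single genes.

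The members, lists and tests were chosen with earlier results of these data known. Named genes were up to 8 rises and 8 falls per comparison by size among those that passed, pairs in opposite directions, and the related genes that passed with H93. Others were named after their values were seen. Alternatives were pseudocounts of 0.1 and 5, no filter, a filter on a mean FPKM of 5, scaling by median ratio, quantiles or a fixed sum, robust moderation, the 6 libraries compared, a replicate block and each library left out. Tables and plots used Python 3.11.15, pandas 2.3.3, numpy 2.4.6 and matplotlib 3.10.9.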

Additional observations from a re-analysis of the deposited data

How the results depend on the processing

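Counts of pathway genes stayed within 1.5 times the reported value in every one of the 19 alternatives. Against DMSO, 26 to 28 fell and 5 to 7 rose with H93, and 23 to 27 fell and 3 to 4 rose with SAHA. Between H93 and SAHA, 11 to 14 were lower and 4 to 6 higher with H93. The 2-fold count was 0 throughout. Of the genes that passed, 30 of 33 (H93 against DMSO), 26 of 28 (SAHA against DMSO) and 14 of 20 (H93 against SAHA) passed in every alternative that tested them. FARS2 and PSTK, at means of 1.55 and 1.97 FPKM over all libraries, were not tested under the filter on a mean FPKM of 5. With the replicate number as a block, 28 fell and 5 rose with H93, 26 fell and 3 rose with SAHA, and 12 were lower and 6 higher with H93 than with SAHA. The numbers did not pair the libraries. Among all genes the 2-fold counts moved with the pseudocount and the filter. They were 263, 540 and 74 at pseudocounts of 1, 0.1 and 5 and 156 with a mean FPKM of at least 5 for H93 against DMSO, and 129, 292, 30 and 78 for SAHA against DMSO. For H93 against SAHA they were 2 as reported, 8 at a pseudocount of 0.1 and 1 in 7 alternatives. The cause was not tested.

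Sign changes were seen in genes that had not passed. For H93 against DMSO, HARS1 was -0.0011 with median-ratio scaling. For SAHA against DMSO, AARS2 was -0.0085 with a fixed sum and GARS1 -0.0069 with quantile normalization. For H93 against SAHA, MARS1 was 0.0072 and WARS2 0.0076 with a fixed sum. With each library left out in turn, H93 against DMSO ran between -0.0119 and 0.033 for GATC, -0.0262 and 0.0445 for HARS1, -0.0139 and 0.0607 for MTFMT, -0.0118 and 0.0533 for RARS2, and -0.0113 and 0.0635 for SEPSECS. SAHA against DMSO ran between -0.007 and 0.007 for AARS2, -0.0622 and 0.012 for MTFMT, and -0.0017 and 0.084 for RARS1. H93 against SAHA ran between -0.0249 and 0.0046 for FARS2, -0.0872 and 0.0082 for HARS2, -0.022 and 0.0019 for MARS1, -0.0115 and 0.087 for PARS2, -0.0028 and 0.0818 for TARS3, and -0.0692 and 0.0792 for WARS2. The cause was not tested. PSTK, among the lowest of the pathway in FPKM, had its largest standard error, 0.103.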
